A study of Mus musculus with 2 samples.

Results

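The epidermal growth factor (EGF) family ligands *Egf*, *Tgfa*, *Areg*, *Epgn*, *Btc*, *Hbegf* and *Ereg* and the ErbB receptors *Egfr*, *Erbb2* and *Erbb3* were examined in the skin of newborn mice that lack *Pnpla1*, which codes for an enzyme of acylceramide synthesis. Their probes were found by name, as every non-control probe of the array that carries one of these 10 gene symbols. The 10 genes, 7 ligands and 3 receptors, belong to 30133 genes on the array. Total RNA of skin was taken from global *Pnpla1*-/- pups and from their *Pnpla1*+/+ littermates on postnatal day 0 (P0), all on a C57BL/6N background. The null allele derived from the knockout-first allele *Pnpla1* tm1a(KOMP)Wtsi after flippase had removed its IRES-LacZ and Neo cassettes. RNA of 6 animals was pooled in equal amounts for each genotype and hybridised to 1 Agilent 1-colour array per genotype. A difference between the arrays is thus a difference between 2 pools, with no measure of the spread between mice, and no test could be made.

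EGF family ligands are made as membrane-anchored precursors, and metalloproteases of the ADAM family release the soluble growth factor from the cell surface. Bound ligand brings ErbB receptors together in pairs and switches on their tyrosine kinases, which feed the RAS-ERK and PI3K-AKT pathways. Keratinocytes both make these ligands and respond to them, and EGFR activity is known for driving epidermal proliferation and wound closure and for restraining terminal differentiation. ERBB2 has no known ligand of its own, and ERBB3, which has little kinase activity, binds neuregulins.

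Values are deposited intensities, in arbitrary fluorescence units, and differences are log2 values of *Pnpla1*-/- minus *Pnpla1*+/+ after each intensity was divided by the 75th percentile of its array, which was 2108 for the *Pnpla1*+/+ pool and 1734 for the *Pnpla1*-/- pool. The error given with a difference of a gene with 1 spot is that of the scanner software's error model for both spots combined, and for a gene with 10 replicate spots the standard deviation (SD) over spots is given. Both cover measurement error alone. *Pnpla1* itself read 579 in the *Pnpla1*+/+ pool and 114 in the *Pnpla1*-/- pool, a log2 difference of -2.07, in the direction of the labels.

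Of the 10 members, 5 were at least 2-fold higher in the *Pnpla1*-/- pool, against 6.7% of the 22374 genes with a difference or a bound, and all 5 were ligands. They were *Epgn*, *Hbegf*, *Ereg*, *Areg* and *Tgfa*. *Btc* was the 1 member at least 2-fold lower, against 3.04% of all genes, and *Egf* and the 3 receptors were within 2-fold. In either direction, 9.74% of all genes passed 2-fold. Every member probe was well above background on both arrays. The median difference was 2.40 for the 7 ligands and 0.32 for the 3 receptors, beside 0.0026 over all genes, and the receptor median turned to -0.11 when the arrays were centred on spike-in RNA. In whole skin, a change in the number of cells that make a transcript and a change in its amount per cell cannot be told apart.

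**Figure D1:**
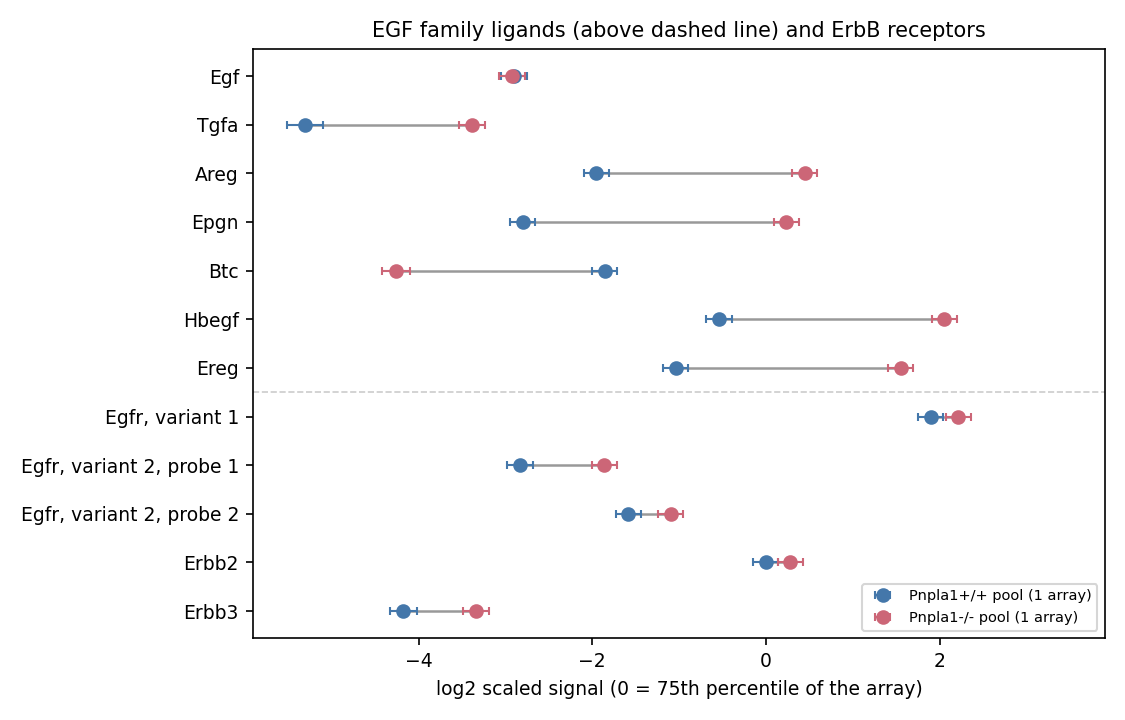
Log2 signal of each member probe, scaled so that 0 is the 75th percentile of its array, in the Pnpla1+/+ pool (blue) and the Pnpla1-/- pool (red), with error bars of 1 SD from the scanner software's error model. Areg, Epgn, Hbegf, Ereg and Tgfa lie to the right in the Pnpla1-/- pool and Btc to the left, whereas the points of Egf overlap.

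The ligand measurements rest on 60-base probes, and the middle 30 bases (bases 16 to 45) are shown for *Epgn*, *Ereg*, *Areg*, *Btc* and *Tgfa*, all past 2-fold, because they are the sequences that were read. The probe of *Hbegf* is not shown. They are given 5′ to 3′ in lower case, with no part marked.
Epgn: accctcaaatacccacgaatattatcctta
Ereg: tgacatagtgaaggacactataatgtatga
Areg: taatgaaccacaaatatccggctatattat
Btc: ttactttacaagagagattccatagattca
Tgfa: ccaaaccatgagttagtttgtcatgtgccc
The whole probes lie, in mm9 coordinates, at chr5:91464119-91464178 for *Epgn*, chr5:91522553-91522612 for *Ereg*, chr5:91570090-91570149 for *Areg*, chr5:91786948-91787007 for *Btc* and chr6:86224838-86224897 for *Tgfa*. A search for runs of 15 or more bases shared with probes of other genes found none for *Epgn*, *Areg*, *Btc*, *Tgfa* or *Hbegf*. The *Ereg* probe shared such a run with a probe of *Tm6sf1*. The brightest probe of *Tm6sf1* read 2406 in the *Pnpla1*+/+ pool and 2081 in the *Pnpla1*-/- pool, a log2 difference of 0.07. Whether that is the probe with the shared run was not checked.

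*Epgn* codes for epigen, a ligand of EGFR. Its intensity was 303 in the *Pnpla1*+/+ pool and 2041 in the *Pnpla1*-/- pool. After scaling it was 8.20-fold higher, a log2 difference of 3.04 with an error of 0.21. *Epgn* had the highest difference of the 10 members, and 170 genes of the whole array had a higher one.

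*Hbegf* codes for heparin-binding EGF-like growth factor, which binds EGFR and ERBB4 and is known for its part in keratinocyte migration. It read 1449 in the *Pnpla1*+/+ pool and 7197 in the *Pnpla1*-/- pool. This was a 6.04-fold higher scaled signal, with a log2 difference of 2.59 and an error of 0.20.

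*Ereg* codes for epiregulin, a ligand of EGFR and ERBB4. The *Pnpla1*+/+ pool read 1027 and the *Pnpla1*-/- pool 5088, which is 6.02-fold higher after scaling, with a log2 difference of 2.59 and an error of 0.20. *Hbegf* and *Ereg* therefore stood at the same place among all genes, with 235 and 236 genes above them.

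*Areg* codes for amphiregulin, an autocrine growth factor of keratinocytes. Its intensity was 544 in the *Pnpla1*+/+ pool and 2365 in the *Pnpla1*-/- pool. The scaled signal was 5.29-fold higher, with a log2 difference of 2.40, an error of 0.20 and 286 genes above it.

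*Tgfa* codes for transforming growth factor-α, a ligand made by keratinocytes themselves. Its probe is printed on 10 spots, of which 9 were used. In the *Pnpla1*+/+ pool the spots read from 46.5 to 79.1 with a median of 50.8, and in the *Pnpla1*-/- pool from 153 to 173 with a median of 167. The spots of the pools did not overlap. The difference was 1.92 ± 0.24 (SD over 9 spots of 1 array per genotype), or 3.79-fold, and the difference at single spots ran from 1.34 to 2.10. With normexp background correction it was 1.25.

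*Egf*, the founding member of the family, did not share these differences. Its 10 spots read from 262 to 301 in the *Pnpla1*+/+ pool and from 206 to 249 in the *Pnpla1*-/- pool before scaling. After scaling the difference was -0.02 ± 0.05 (SD over 10 spots), and single spots lay between -0.09 and 0.07, on both sides of 0.

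*Btc* codes for betacellulin, a ligand of EGFR and ERBB4. Its intensity was 583 in the *Pnpla1*+/+ pool and 90.5 in the *Pnpla1*-/- pool. The scaled signal in *Pnpla1*-/- skin was 18.9% of that in *Pnpla1*+/+ skin, with a log2 difference of -2.41 and an error of 0.22. *Btc* thus differed from the other ligands of its chromosomal cluster in direction, and 47 genes of the array had a lower difference.

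In the order of differences, where errors are those of the error model for every gene, *Epgn* was followed by *Hbegf*, *Ereg*, *Areg*, *Tgfa*, *Erbb3*, *Egfr*, *Erbb2*, *Egf* and *Btc*. *Hbegf* and *Ereg* were apart by 0.0034 against a combined error of 0.29, and *Ereg* and *Areg* by 0.19 against 0.29, so the order of these 3 ligands lay within measurement error. *Epgn* stood 0.44 above *Hbegf*, 1.53 times the combined error of 0.29. The step from *Tgfa* to *Erbb3* was 1.09 with an error of 0.34, and that from *Egf* to *Btc* 2.38 with an error of 0.30. *Egfr* and *Erbb2* were apart by 0.04, less than the error of 0.29.

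**Figure D2:**
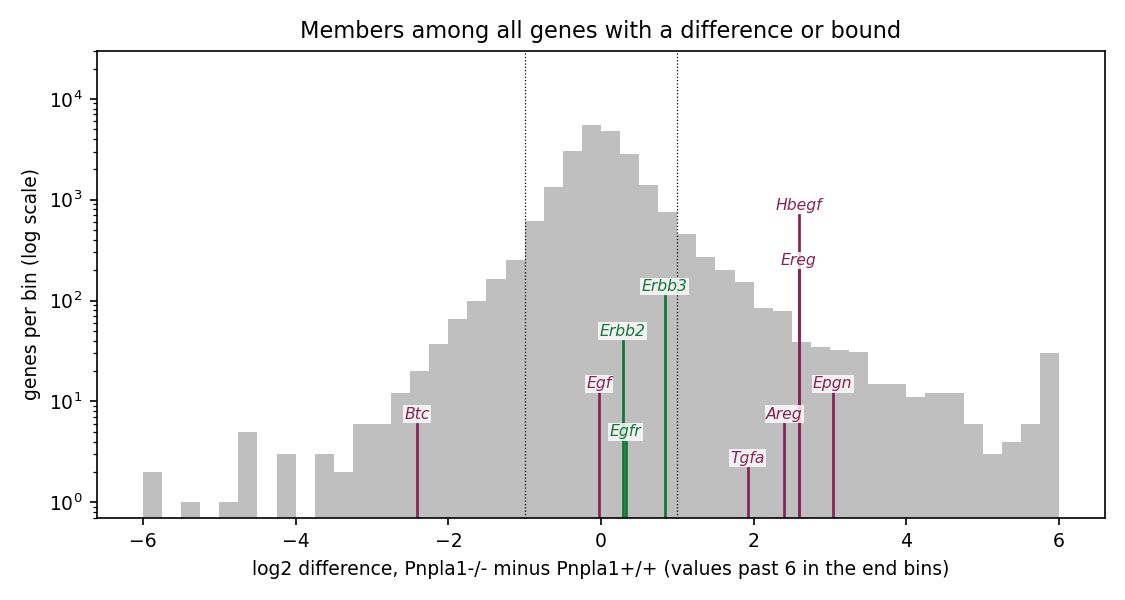
Number of genes per bin of log2 difference (grey, log scale) for the 22374 genes with a difference or a bound, with the ligands (purple) and receptors (green) marked and dotted lines at 2-fold. Epgn, Hbegf, Ereg, Areg and Tgfa lie in the right tail, Btc in the left tail and the receptors between the dotted lines; line height has no meaning.

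*Egfr* codes for the receptor that all 7 ligands bind. Its brightest probe, designed on transcript variant 1 and printed on 10 spots, read 7840 in the *Pnpla1*+/+ pool and 8058 in the *Pnpla1*-/- pool. After scaling the difference was 0.32 ± 0.03 (SD over 10 spots), or 1.25-fold, whereas centring on spike-in RNA gave -0.11. Both probes designed on transcript variant 2 showed higher differences. The first read 297 and 477, a log2 difference of 0.97 with an error of 0.21, and the second 702 and 812, a difference of 0.49 with an error of 0.20. The 3 probes of *Egfr* thus ran from 1.25-fold to 1.95-fold, and none reached 2-fold. Their middle 30 bases are shown because the probes gave different sizes.
Egfr variant 1: aactgtagcaatgaaaccctagtatttttg
Egfr variant 2, probe 1: gggtacgttcaatggcagtggatcttaaag
Egfr variant 2, probe 2: atgccaataatgtctgccacctatgccacg
The first lies at chr11:16813815-16813874, and the others at chr11:16787172-16787231 and chr11:16783556-16783615 (mm9). What part of each transcript the probes read was not tested.

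*Erbb2*, the preferred partner of the other receptors, read 2106 in the *Pnpla1*+/+ pool and 2108 in the *Pnpla1*-/- pool over 10 spots. The scaled difference was 0.28 ± 0.02 (SD over 10 spots), or 1.22-fold, and it was -0.15 with spike-in centring. *Erbb3* read 117 and 171, a 1.78-fold higher scaled signal with a log2 difference of 0.83 and an error of 0.22, and it stayed above 0 under every alternative tried, with a lowest value of 0.40. By the brightest probe of each gene, the receptors were therefore less far from 0 than the 5 higher ligands by more than the measurement error.

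*Epgn*, *Ereg*, *Areg* and *Btc* are neighbours on chromosome 5, where their probes span 323 kb. *Epgn* and *Areg* lie within 106 kb of each other, and *Btc* lies 217 kb beyond *Areg*. In the region from 1 Mb before the *Epgn* probe to 1 Mb after the *Btc* probe, 31 other genes had a difference or a bound, with a median of -0.06. *Mthfd2l*, the nearest measured gene before *Epgn*, had a difference of -0.17, and *Parm1*, the nearest after *Btc*, one of 0.27. The nearest measured gene on each side was thus within 2-fold, which does not describe the rest of the region.

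Elsewhere in the same region, 6 genes were at least 2-fold higher (19.4% of 31), against 6.7% of all genes. All 6 code for chemokines, a gene family that lies in clusters here, so the share describes that family. The nearest of them to the ligands, *Cxcl2*, has its probe 236 kb before that of *Areg*. *Cxcl5*, a neutrophil attractant, read 41.0 in the *Pnpla1*+/+ pool and 1003 in the *Pnpla1*-/- pool, a log2 difference of 4.90. The differences of *Cxcl1* and *Cxcl2*, which attract neutrophils too, were 4.68 and 2.51. *Cxcl3* was well above background in the *Pnpla1*-/- pool alone, with a difference of at least 3.01. *Cxcl9* and *Cxcl10*, known as interferon-induced T-cell attractants, had differences of 3.68 and 3.64. All 6 stayed past 2-fold under every alternative that gave them a value, but normexp gave lower values, of 3.74 for *Cxcl5*, 3.31 for *Cxcl1*, 1.36 for *Cxcl2*, 1.54 for *Cxcl3* and 2.90 for *Cxcl9*, and the mean over probes gave 2.53 for *Cxcl10*. *Ppbp*, a chemokine gene of platelets, was the 1 gene lower by 2-fold or more, at -1.43, while *Pf4*, the other platelet chemokine gene there, had a difference of -0.13.

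**Figure D3:**
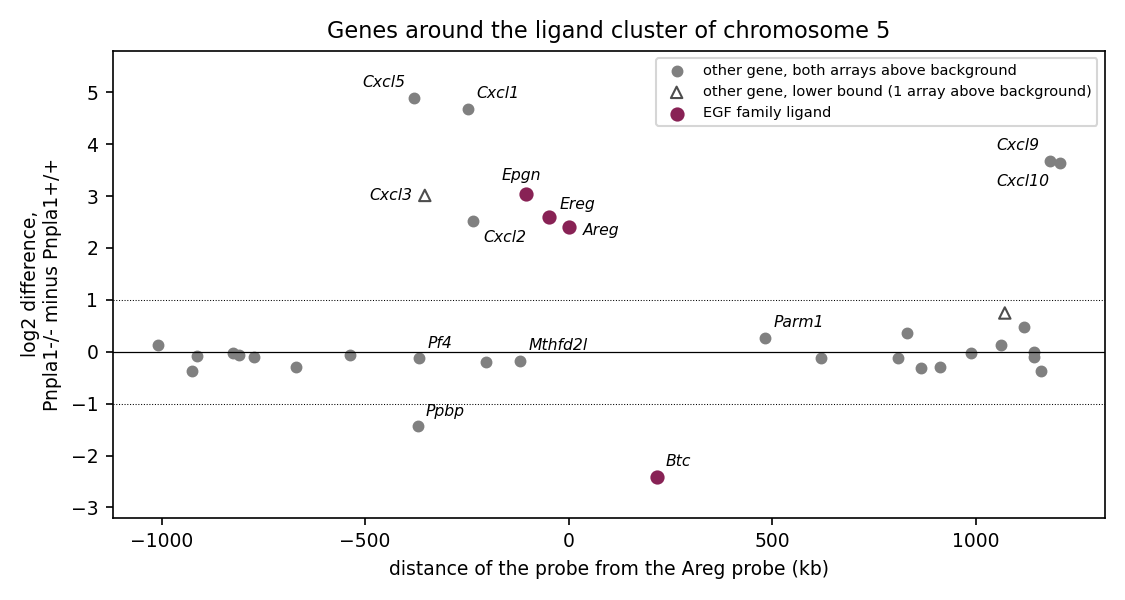
Log2 difference between the pools for each gene around the ligand cluster of chromosome 5, against the distance of its probe from the Areg probe in kb; open triangles are bounds of genes above background on 1 array. Epgn, Ereg and Areg stand above 2 and Btc below -2, the chemokine genes Cxcl5, Cxcl1, Cxcl2, Cxcl3, Cxcl9 and Cxcl10 stand above 2, and the genes beside the ligands are near 0.

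The 250 bases before the transcription start are shown for *Areg* and *Epgn*, which were higher, and for *Btc*, which was lower, since these neighbours differed in direction. They are RefSeq sequences of assembly GRCm38.p6, at chr5:91139349-91139598 (plus strand) for *Areg*, chr5:91027267-91027516 (plus strand) for *Epgn* and chr5:91402995-91403244 (minus strand) for *Btc*. Capitals mark matches on either strand to a cAMP response element (CRE, TGACGTCA), an AP-1 site (TGA and TCA with any base between them), a TATA box (TATAAA) or a GC box (GGGCGG).
Areg: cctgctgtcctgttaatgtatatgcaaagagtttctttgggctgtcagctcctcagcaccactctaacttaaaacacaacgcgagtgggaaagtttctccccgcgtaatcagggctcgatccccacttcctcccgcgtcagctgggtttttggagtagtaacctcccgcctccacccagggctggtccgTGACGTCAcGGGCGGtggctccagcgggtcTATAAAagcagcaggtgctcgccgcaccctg
Epgn: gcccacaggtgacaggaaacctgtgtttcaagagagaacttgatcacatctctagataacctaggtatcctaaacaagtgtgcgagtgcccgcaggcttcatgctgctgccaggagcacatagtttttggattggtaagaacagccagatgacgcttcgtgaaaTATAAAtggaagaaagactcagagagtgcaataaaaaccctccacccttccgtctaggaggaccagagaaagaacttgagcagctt
Btc: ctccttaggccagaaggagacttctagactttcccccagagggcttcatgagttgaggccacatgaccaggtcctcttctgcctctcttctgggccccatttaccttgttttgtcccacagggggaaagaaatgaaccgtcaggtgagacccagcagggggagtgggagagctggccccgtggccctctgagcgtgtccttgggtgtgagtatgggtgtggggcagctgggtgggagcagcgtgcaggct
The *Areg* sequence held a CRE whose first base lies 61 bases before the start, a GC box at 52 and a TATA box at 31. The *Epgn* sequence held TATAAA at 86 bases before the start, and that of *Btc* held none of the 4 motifs. Among 32851 mouse sequences of the same length, 1.55% held the CRE, 6.75% the AP-1 site, 12.4% the TATA box and 32.7% the GC box. The CRE, TATA box and GC box together were held by 11 (0.0335%). That combination is the one found in *Areg*, so its rarity is no separate evidence about *Areg*. Of the 7 members whose upstream sequence was searched, *Tgfa* and *Egfr* also held GC boxes and none held the AP-1 letters. *Hbegf* was left out of this search, and *Ereg* and *Erbb3* had no upstream sequence in the RefSeq table. These matches describe the letters, and binding to them was not measured.

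Other genes of the pathway were grouped by role. The counts past 2-fold in these short lists stand beside 6.7% of all genes higher and 3.04% lower. Of *Erbb4* and the neuregulins, ligands of ERBB3 and ERBB4, 4 of 5 genes had a difference or a bound. *Nrg1* read 371 in the *Pnpla1*+/+ pool and 624 in the *Pnpla1*-/- pool, a log2 difference of 1.03, and it was the 1 gene of the group past 2-fold, though not under the 5 alternatives of scaling by the median, no scaling, quantile normalization, normexp and spike-in centring. *Nrg2* had a difference of -0.39 at its brighter probe and 0.53 at the other, *Nrg4* one of 0.31 at the brightest of 3 probes that ran up to 0.82, *Nrg3* stayed near background in both pools, and *Erbb4*, at 26.4 and 21.3, was well above background in the *Pnpla1*+/+ pool alone.

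Among 11 genes of ligand shedding, *Adam8* was past 2-fold, with 3117 in the *Pnpla1*+/+ pool and 11841 in the *Pnpla1*-/- pool, a log2 difference of 2.21. *Adam8* codes for a metalloprotease found on leukocytes as well as epithelial cells. *Adam17*, the main sheddase of several EGFR ligands, had a difference of 0.75 and *Rhbdf2*, which codes for the iRhom2 partner of ADAM17, one of 0.72, both within 2-fold. *Timp3*, an inhibitor of ADAM17, was at -0.51. The median of the group was 0.29, and it turned to -0.14 with spike-in centring.

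Of 18 inhibitors of the receptors or of the pathway, 3 were at least 2-fold higher, of which 2 lost the call under 5 of 10 alternatives, and none was lower, while the median of the group was -0.07. *Cblc*, an epithelial ubiquitin ligase that acts on EGFR, read 2736 in the *Pnpla1*+/+ pool and 6735 in the *Pnpla1*-/- pool, a difference of 1.58. *Dusp6* and *Dusp5*, phosphatases that act on ERK and are induced by its activity, were just past 2-fold, a call that both lost with scaling by the median, no scaling, quantile normalization, normexp and spike-in centring. *Dusp6* read 9314 and 15391, a difference of 1.01, and *Dusp5* read 91.0 and 150, a difference of 1.0. *Lrig3* and *Lrig1*, of a family of transmembrane regulators of ErbB receptors, were lower within 2-fold, at -0.64 and -0.52.

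Of the 22 adaptors and kinases between receptor and nucleus, all but *Gab2* were within 2-fold, and the median of the group was 0.03. *Gab2* was well above background in the *Pnpla1*-/- pool alone, with a difference of at least 0.73, so whether it passed 2-fold cannot be said. The lowest of the group was at -0.29. *Map2k1* and *Mapk3*, which code for the kinases MEK1 and ERK1, were the highest of the genes measured in both pools, at 0.43 and 0.42.

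Among 14 genes known to respond to growth factors, 4 were at least 2-fold higher and 2 lower, with a median of 0.36 that turned to -0.07 with spike-in centring. *Ier3*, an immediate early gene, read 1354 in the *Pnpla1*+/+ pool and 5276 in the *Pnpla1*-/- pool, a difference of 2.24. *Fosl1*, which codes for the AP-1 subunit FRA1, read 176 and 583, a difference of 2.01. *Plaur*, the urokinase receptor gene, had a difference of 1.31 and *Phlda1* one of 1.0. In the other direction, *Fos*, the classical immediate early gene, read 12017 and 4910, a difference of -1.01. *Ccnd1*, which codes for cyclin D1, read 15941 and 6355, a difference of -1.04. The response genes thus did not move in 1 direction, and *Egr1*, another immediate early gene, was at 0.21. *Phlda1* was no longer past 2-fold under the same 5 alternatives as *Dusp5* and *Dusp6*, and *Plaur* was not with spike-in centring.

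**Figure D4:**
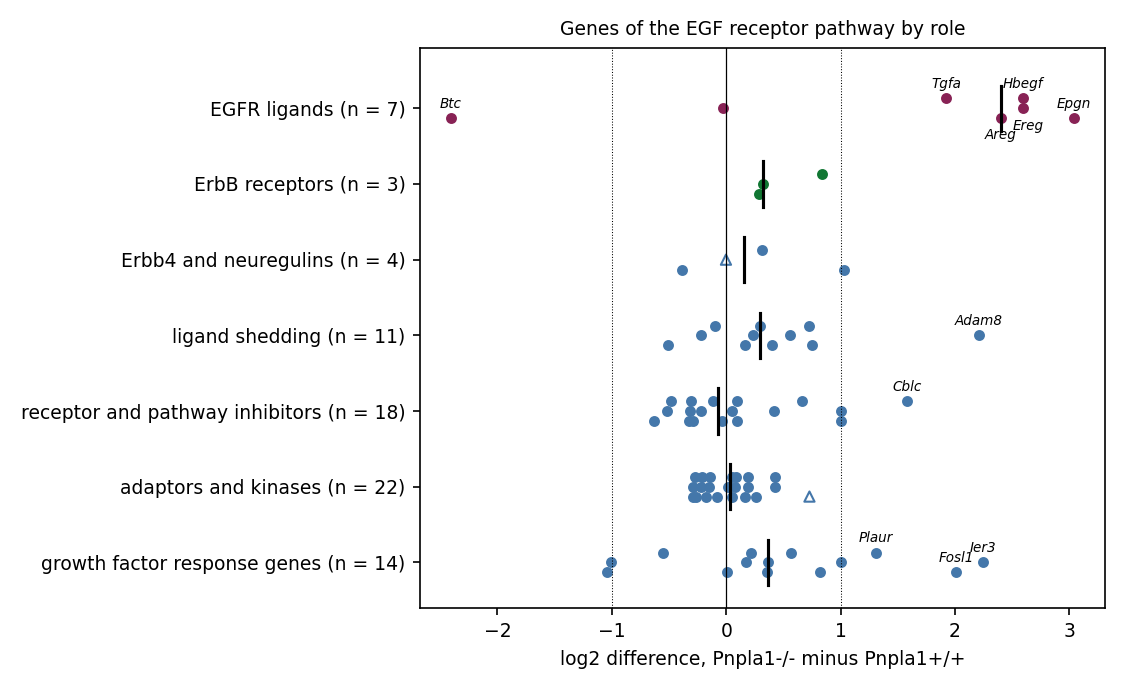
Log2 difference of each gene with a difference or a bound, grouped by role in the pathway, with a black bar at the median of the group, dotted lines at 2-fold and open triangles for bounds. The ligand median of 2.40 lies far to the right of the medians of the receptors (0.32), shedding genes (0.29), inhibitors (-0.07), adaptors and kinases (0.03) and response genes (0.36).

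Markers of the cell types of skin were read beside these values. For the counts in these short marker lists too, 6.7% of all genes were at least 2-fold higher and 3.04% lower. The tissue label was borne out by keratinocyte, fibroblast, fat and muscle markers, all well above background in both pools, so the RNA held more than epidermis, the tissue that the deposited design text names in place of skin. Of 7 basal keratinocyte markers, *Krt14* had a log2 difference of 1.35, not past 2-fold with spike-in centring, and *Krt15* one of -1.67, and *Krt5*, the brightest, had a difference of 0.22. The summed scaled signal of the list was 199 in the *Pnpla1*+/+ pool and 230 in the *Pnpla1*-/- pool. The 5 suprabasal markers were within 2-fold, with *Krt10*, the brightest, at 0.20 and summed signals of 358 and 399. The markers of the basal list thus went both ways.

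All 9 hair follicle markers were lower in the *Pnpla1*-/- pool, from -1.28 to -0.71 with a median of -1.01, and 5 of them were past 2-fold. These were *Lhx2* at -1.28, *Krt28* at -1.23, *Krt27* at -1.10, *Shh* at -1.10 and *Hoxc13* at -1.01, of which *Shh* and *Hoxc13* were within 2-fold with normexp. The keratins are those of the inner root sheath, and *Shh* codes for a signal of follicle growth. Their summed scaled signal was 88.9 in the *Pnpla1*+/+ pool and 46.1 in the *Pnpla1*-/- pool, with *Krt71*, another inner root sheath keratin, the brightest, at -0.82. *Btc* at -2.41 was lower than every one of these 9. Of 7 leukocyte markers, 3 were at least 2-fold higher, namely *Lyz2* at 2.35, *Ptprc* at 1.51 and *Adgre1* at 1.24, the last of which was within 2-fold without scaling and with spike-in centring. The 3 probes of *Itgam*, the brightest gene of the list, disagreed, with -0.03 at the brightest probe and 1.14 and 2.84 at the others. The summed signal of this list was 8.93 in the *Pnpla1*+/+ pool and 12.3 in the *Pnpla1*-/- pool, or 3.32 and 6.76 without *Itgam*. No marker of it was below background. The part that a change of hair follicle cells or leukocytes had in the ligand differences was not tested.

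The make-up of the pools by sex is not given in the sources used here. *Xist*, transcribed from the inactive X chromosome of females, read 853 in the *Pnpla1*+/+ pool and 1528 in the *Pnpla1*-/- pool, a log2 difference of 1.12, and the Y-linked *Ddx3y* read 1863 and 336, a difference of -2.19. The pools therefore differed in sex-linked transcripts as well as in genotype, and the part of sex in the ligand differences cannot be told apart from that of genotype.

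The differences of the members were computed again under 10 other choices of scaling, background correction, probe choice and filter. The 5 higher ligands stayed at least 2-fold higher and *Btc* at least 2-fold lower under all 10. *Epgn* ranged from 2.61 to 3.04, *Hbegf* and *Ereg* from 2.16 to 2.59, *Areg* from 1.97 to 2.40, *Tgfa* from 1.25 to 1.92 and *Btc* from -2.84 to -1.84. *Egf*, *Egfr* and *Erbb2* were on both sides of 0 across these choices, with ranges of -0.46 to 0.03, -0.11 to 0.59 and -0.15 to 0.29.

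**Figure D5:**
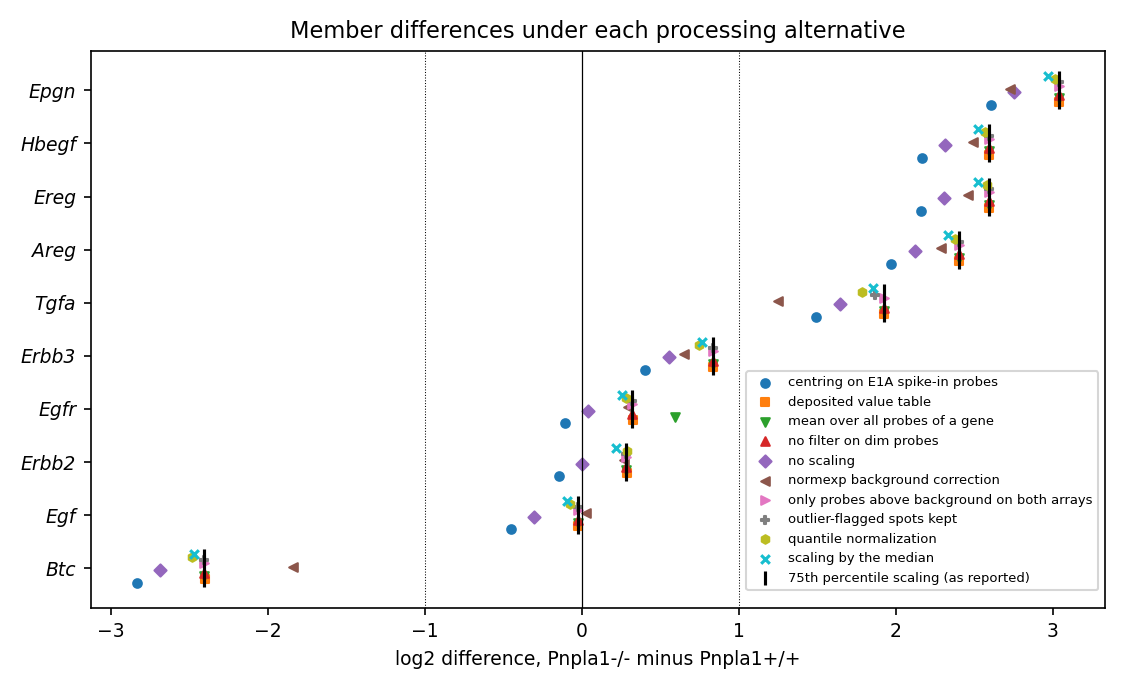
Log2 difference of each member as reported (black bar) and under 10 alternative choices of processing (coloured symbols), with dotted lines at 2-fold. Epgn, Hbegf, Ereg, Areg and Tgfa stay to the right of 1 and Btc to the left of -1, whereas Egf, Egfr and Erbb2 lie on both sides of 0.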

How the data were processed

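Total RNA was amplified, labelled with Cy3 and hybridised to Agilent mouse 4x44K v2 arrays, 1 per genotype, both on 1 slide with 1 scan time. The authors processed the images with Agilent Feature Extraction 11.5.1.1, deposited background-subtracted, linear intensity values for 43020 spots per array, and imported them into GeneSpring GX with global normalization. The deposited value table holds the intensity as a ratio to 1 constant per array, 2109.24 and 1734.11, by comparison with the scanner values, so its scale and direction are known.

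Here, control and outlier spots (138 in *Pnpla1*+/+, 82 in *Pnpla1*-/-) were left out, spots of a probe were averaged, and log2 intensity minus that of the 75th percentile of the array was compared between the pools. The brightest probe stood for a gene. A probe well above background on 1 array (71.7% of spots passed in *Pnpla1*+/+, 73.3% in *Pnpla1*-/-) gave a bound, set on the other array against the higher of its own signal there and the lowest signal well above background, and a probe below it on both gave no value. Of 30133 genes, 20680 were measured on both arrays, 1710 on 1 and 7743 on neither, and 22374 had a difference or a bound, since a bound of under 1-fold was dropped. Over 314 probes with 8 or more spots, the SD of the difference between spots was 0.04. Of 39429 probes, the RefSeq table named 27508 through their accession, 3544 through the current symbol and 404 through a former one, and 7973 kept the name in the file. The scripts were tested on simulated data (Python 3.11.15, pandas 2.3.3, R 4.3.3, limma 3.58.1 for quantile and normexp).

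The members and gene lists were chosen with earlier results of these data known. Named were all members, list genes past 2-fold or otherwise up to 3 of each list with the largest differences, and genes past 2-fold near the ligand cluster, while other genes in the text were named after their values were seen. A red blood cell marker is not reported here. Precision is limited by the number of arrays, 1 per genotype.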

Additional observations from a re-analysis of the deposited data

How the results depend on the processing

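Across 10 processing alternatives and 2 other fold thresholds, the members past the threshold stayed 5 higher and 1 lower, except that 6 were higher at 1.5-fold, where *Erbb3* joined. No result of at least 2-fold changed sign. The all-gene median moved by -0.28 without scaling, by -0.44 with spike-in centring (8 E1A probes, mean 0.43) and by 0.10 without the filter. For *Pnpla1*, the difference of -2.07 became -2.50 with spike-in centring, -2.35 without scaling, -1.51 with normexp, -2.14 with quantile normalization and -2.14 with scaling by the median. Genes at least 2-fold higher, 1499 as reported, numbered 827 with spike-in centring, 998 without scaling, 960 with normexp and 3041 without the filter on dim probes, against 3092 at 1.5-fold and 684 at 3-fold. Genes lower, 681 as reported, numbered 2178, 1424, 321 and about 1.1e+03 under the same 4 choices, against 2092 at 1.5-fold and 228 at 3-fold. The higher share of genes past 2-fold was 68.8% as reported, 41.2% without scaling, 27.5% with spike-in centring and 58.8% with quantile normalization. The ligand median of 2.40 became 1.97 with spike-in centring, 2.12 without scaling, 2.29 with normexp and 2.33 with scaling by the median, and the receptor median of 0.32 became -0.11, 0.040 and 0.25 under spike-in centring, no scaling and scaling by the median, and 0.59 as the mean over probes. The scaling shifts act on all genes by construction, and the cause of the other changes was not tested. No paired analysis was possible because each genotype has 1 array, and for the same reason no replicate could be left out.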

Other observations

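Other cell types of the skin were read from their marker lists, all within 2-fold except where named. The 6 fibroblast markers had a median difference of -0.07, with *Col1a2*, the brightest, at -0.17. The 5 adipocyte markers had a median of 0.06 and the 6 skeletal muscle markers one of 0.06, and their summed scaled signals were 72.5 and 76.4, and 308 and 335, in the *Pnpla1*+/+ and *Pnpla1*-/- pools. The 5 endothelial markers had a median of 0.25, and the 5 Schwann cell markers one of 0.01, from -0.19 to 0.19. With spike-in centring, the medians of these lists other than fibroblasts fell below 0, as that choice moved every difference down by 0.43.

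Of the melanocyte markers 4 of 5, all but *Tyrp1* at 0.12, and of the mast cell markers all 5 had differences below 0, each within 2-fold. *Dct*, the brightest of 5 melanocyte markers, was at -0.38, which was the median of that list too. The 5 mast cell markers, from *Cma1* at -0.79 to *Kit* at -0.03, had a median of -0.52 and summed signals of 56.6 and 39.8. Among red blood cell markers, *Alas2*, the first enzyme of haem synthesis in red cells, was higher by 1.32 (within 2-fold with spike-in centring), and *Hba-a1*, an α-globin gene, read 81424 and 118798, a difference of 0.83.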
